A study of Mus musculus with 4 samples.

Results

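Helix-loop-helix factors and their inhibitors were examined through 23 probe sets of 10 mouse genes: Tcf24, the E protein genes Tcf3, Tcf4 and Tcf12, the inhibitor genes Id1, Id2 and Id3, the blood factors Lyl1 and Tal1, and the repressor Hes1. A probe set is the group of short probes on an Affymetrix array that reads a transcript, and the members are all those, among 45037 probe sets of 18193 genes and of unnamed transcripts (without controls), whose single gene symbol in the platform's annotation is one of these names. The genes were chosen by family with the difference between the groups already known, Tcf24 because its signal was among those with the largest rise. The differences of the members are therefore given as a description, without p-values, and their counts support no statement about the family.

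RNA came from mouse leukemic cells carrying the MLL-AF9 fusion gene, purified from the bone marrow of transplanted C57BL/6 mice, with 1 array per sample. The control group held 2 samples of leukemic cells with the genotype Wild type, in recipients labelled as repopulated with wild-type marrow. The other group held 2 samples with the genotype Ezh2 KO, Ezh2 being the enzyme of Polycomb repressive complex PRC2 that methylates histone H3, while another label of the same samples names Ink4a-/-Arf-/- marrow. A difference in Ink4a and Arf cannot be told apart from one in Ezh2 if that label holds. Animal age, the purification markers, and whether replicates came from separate mice or leukemias are not given in the sources used here, so the errors cover only the spread between the samples at hand, part or all of which may be technical.

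Helix-loop-helix proteins act as dimers. The E proteins encoded by Tcf3, Tcf4 and Tcf12 are widely expressed and bind the E box, a short DNA motif, as homodimers or with a tissue-restricted partner such as Tal1 or Lyl1. The Id proteins have the dimerisation domain without the basic region that contacts DNA, so an E protein held by an Id protein does not bind the E box. In blood, E proteins drive lymphoid development, Tcf4 is the defining factor of plasmacytoid dendritic cells, Id2 is needed for innate lymphoid cells, and Tal1 with Lyl1 maintains stem cells, Tal1 also being required for red cells and megakaryocytes. Hes1 is a transcriptional repressor induced by Notch, and Tcf24 encodes a little-studied factor of the tissue-restricted class.

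Upstream sequence was matched for 6 of the 10 genes in the RefSeq promoter table (GRCm38.p6), and the windows of 4 of them are shown because they let the E box be read beside the levels: Id2 and Tcf12, whose brightest probe sets were higher in the knockout arrays, Lyl1, whose signal was high in both groups, and Id3, whose signal was near 0. Each window ends at the base before the gene's outermost annotated start and is written 5′ to 3′ on the gene's strand, with every match to the E box CANNTG in capitals. The motif is its own reverse complement, so the letters cover both strands.
Id2 (chr12:25096093-25096342, minus strand): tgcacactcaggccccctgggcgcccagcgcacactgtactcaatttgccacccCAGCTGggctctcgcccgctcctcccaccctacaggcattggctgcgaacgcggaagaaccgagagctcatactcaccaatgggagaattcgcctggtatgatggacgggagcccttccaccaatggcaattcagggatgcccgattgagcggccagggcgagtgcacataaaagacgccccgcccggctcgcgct
Tcf12 (chr9:72111894-72112069, minus strand): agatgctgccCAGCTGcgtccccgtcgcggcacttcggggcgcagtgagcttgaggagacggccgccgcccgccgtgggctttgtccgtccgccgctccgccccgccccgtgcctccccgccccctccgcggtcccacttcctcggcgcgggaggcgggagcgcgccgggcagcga
Lyl1 (chr8:84701207-84701422, plus strand): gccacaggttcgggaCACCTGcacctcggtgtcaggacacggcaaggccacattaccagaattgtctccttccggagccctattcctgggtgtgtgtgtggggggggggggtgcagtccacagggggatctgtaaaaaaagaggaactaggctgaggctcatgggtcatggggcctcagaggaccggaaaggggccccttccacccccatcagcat
Id3 (chr4:136143572-136143821, plus strand): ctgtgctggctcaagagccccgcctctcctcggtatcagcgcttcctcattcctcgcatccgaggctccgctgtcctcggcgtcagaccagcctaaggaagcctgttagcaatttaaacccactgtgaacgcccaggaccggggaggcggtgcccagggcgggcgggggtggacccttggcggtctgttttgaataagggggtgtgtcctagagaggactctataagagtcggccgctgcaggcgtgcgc
The Id2 and Tcf12 windows each held 1 E box, CAGCTG in both, the Lyl1 window held 1, CACCTG, and the Id3 window held 0. The window of Tal1, not shown, held 0 as well, and the remaining matched gene left too few upstream bases for a window. Such a match was common: 66.2% of the 32851 windows of the table held CANNTG within the 250 bases used for Id2 and Id3, 54.7% within the 176 bases used for Tcf12, and 61.6% within the 216 bases used for Lyl1. The N box CACNAG, a motif bound by the Hes repressors, was searched on both strands, can overlap an E box only in part, and had 0 matches in these windows, against 36.7%, 27.9% and 33.0% of all windows at those lengths. CpG content separated the windows more. Tcf12 had 28 CpG dinucleotides, more than 98.6% of all windows, Id2 and Id3 had 18 each, more than 78.3%, and Lyl1 had 5, equal to the median. These counts describe the letters of the windows and no binding was measured.

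Levels below are the deposited intensities in linear array units, with each group as mean ± SD over n = 2 arrays. Differences are in log2(intensity + 16), knockout minus wild type, with the standard error (SE) of a limma fit across all probe sets, and folds are taken on the same scale, which understates the change of dim signals. A probe set was tested when its mean over the 4 arrays exceeded 21.9, the 30th percentile of the table, and was counted as called at an adjusted p under 0.05. Of the 23 member probe sets 21, from 8 genes, were above that level, and those of Id3 and Tal1 were below it. Nothing in the values shows detection, so a signal near the filter cannot be told from background. Each probe set has its own binding strength, so levels are compared between arrays and not between probe sets.

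Across the 21 tested member probe sets 9 were called, all 9 higher in the knockout, where 7.31% of all 31526 tested probe sets were called 3.91% higher and 3.39% lower. The groups of arrays did not overlap for 12 of the 21, as for 49.6% of all tested probe sets. The median log2 difference was 0.37 over the 21 and 0.04 over all tested. The called probe sets belonged to Tcf24, Tcf4, Tcf12, Id1 and Id2.

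**Figure D1:**
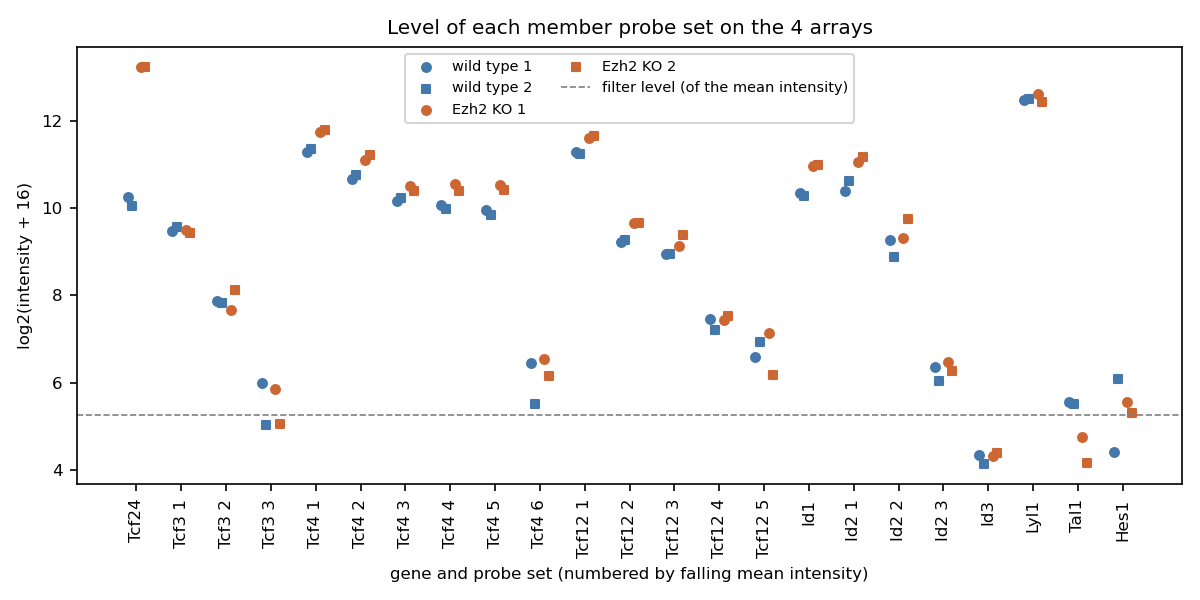
Level of every member probe set on the 4 arrays as log2(intensity + 16), with wild-type arrays in blue and Ezh2 KO arrays in orange, probe sets of a gene numbered by falling mean and the dashed line at the filter intensity of 21.9. Tcf24 stands apart with the knockout arrays at 9624 and 9613 and the wild-type arrays at 1208 and 1046. The probe sets of Tal1 and Hes1 and the dimmest of Tcf3 lie around the line. The dimmest of Tcf4 and of Id2 lie mostly above it, and Id3 lies below it.

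Tcf24 had the widest separation among the members. Its single probe set read 1208 and 1046 on the wild-type arrays and 9624 and 9613 on the knockout arrays. The knockout arrays were close to each other and far above both wild-type arrays. From 1127 ± 114 to 9618 ± 7.62 the log2 difference was 3.08 (SE 0.08), an 8.45-fold higher signal and the third largest rise among all tested probe sets. It was 2.98 to 3.18 with any array left out and 2.98 with each array centred on its median. The 5 genes whose centred log2 values over the 4 arrays lay nearest to those of Tcf24 were Stag3, a meiotic cohesin subunit, at a Euclidean distance of 0.43, Cdk5rap1, a tRNA modification enzyme, at 0.45, Pik3ap1, a phosphoinositide 3-kinase adaptor, at 0.45, the retinol carrier Rbp4 at 0.54 and the kinase Yes1 at 0.55. With only 4 arrays in 2 groups this likeness reflects mostly the size of the difference, which lay between 2.59 and 2.79 for these genes.

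Among the E proteins, Tcf4 and Tcf12 were higher in the knockout and Tcf3 showed no difference beyond its error. The annotation's gene identifiers are those of the helix-loop-helix genes, not of the HMG-box factors that share the older names TCF3 and TCF4. Tcf4, also known as ITF-2, had 6 probe sets, all 6 with a positive difference, of which 4 were called. The brightest read 2473 and 2589 in the wild type and 3388 and 3541 in the knockout. The next read 1606 and 1727 against 2165 and 2355. In both, every knockout array lay above every wild-type array. The log2 differences of these were 0.45 (SE 0.07) and 0.44 (SE 0.08). The fifth by brightness gave the widest difference of the gene, 0.57 (SE 0.09), from 979 and 905 to 1463 and 1353. A probe set of similar brightness whose suffix marks probes that may read related sequences had 0.45 (SE 0.09). The third was at 1151 ± 42.3 and 1381 ± 78.9, a difference of 0.26 (SE 0.09) that was not called although the groups did not overlap. The dimmest, at 71.8 and 29.7 against 77.6 and 55.4, overlapped between groups.

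How firmly these Tcf4 values stood apart varied between probe sets. Only the one with the widest difference was called at all 9 alternative settings applied to the members. All 9 let the variance used by limma follow intensity. With a single prior variance 0 of the 31526 tested probe sets were called. Median centring lowered the 4 called differences to 0.34 to 0.47 and ended the call of the other 3. Leaving out wild-type replicate 1 ended the call of the second probe set (0.38). The probe set with possible shared sequence was not called without wild-type replicate 1 (0.48), wild-type replicate 2 (0.41) or Ezh2 KO replicate 1 (0.36).

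Tcf4 is the defining factor of plasmacytoid dendritic cells, whose other markers were dim. Of 8 such markers on the array 6 were above the filter, and all 8 summed to 398 to 539 on the wild-type arrays and 378 to 482 on the knockout arrays, with Klk1 the largest share of it. The Klk1 probe set has the suffix for possible shared sequence. Without Klk1 the sums were 165 to 216 and 199.6 to 226. Siglech, the surface marker of these cells, read between 8.11 and 45.2 on the 4 arrays. The sums with and without Klk1 overlapped between groups. The part of such cells in the Tcf4 difference was not tested. In bulk samples, fewer cells of a type and less RNA per cell cannot be told apart.

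Tcf12, which encodes the E protein HEB, was higher by a similar amount. Its brightest probe set read 2481 and 2408 in the wild type and 3115 and 3220 in the knockout, a log2 difference of 0.37 (SE 0.07). The second read 576 and 599 against 787 and 797, a difference of 0.42 (SE 0.10). Both were called and neither overlapped between groups. The third, at 474 and 478 against 547 and 652, was not called at 0.32 (SE 0.12), and the remaining pair, at means of 154 and 91.9 over the 4 arrays, overlapped between groups with differences of 0.15 (SE 0.20) and -0.09 (SE 0.34). Under median centring the called differences were 0.27 and 0.32 and neither was called. Without wild-type replicate 2 the brightest lost its call (0.35), and the second lost its call with any array left out (0.39 to 0.45).

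Tcf3, the E protein gene essential for early B cells, gave values that overlapped in all 3 probe sets. The brightest read 696 and 740 in the wild type and 706 and 669 in the knockout. Its log2 difference was -0.06 (SE 0.10). The second was at 213 ± 3.96 and 225 ± 53.1, a difference of 0.05 (SE 0.19) that turned to -0.04 with median centring. The dimmest, with the suffix for possible shared sequence, read 47.6 and 16.5 against 41.8 and 17.1.

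**Figure D2:**
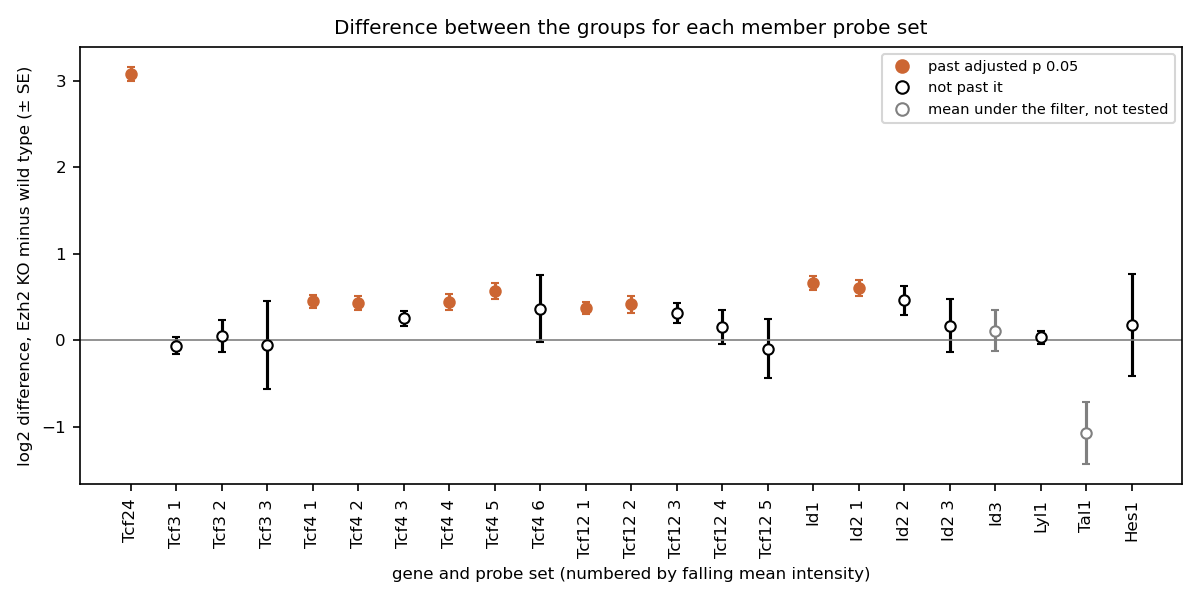
Log2 difference of each member probe set, Ezh2 KO minus wild type, with the SE of the limma fit as bars, filled orange where the adjusted p was under 0.05, open black where it was not and grey where the mean was under the filter. The filled points are Tcf24 at 3.08 and 8 probe sets of Tcf4, Tcf12, Id1 and Id2 between 0.37 and 0.66.

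Of the inhibitors, Id1 and the brightest probe set of Id2 were higher in the knockout, and Id3 was under the filter. Id1, a direct target of BMP signalling in many cells, read 1284 and 1219 on the wild-type arrays and 1971 and 2011 on the knockout arrays. Both knockout arrays lay above both wild-type arrays by several times the gap within either group. The log2 difference was 0.66 (SE 0.08), a 1.58-fold higher signal, and 0.57 with median centring. It was called at all 9 settings, which all let the variance follow intensity. Id2, the inhibitor that innate lymphoid cells depend on, had 3 probe sets. The brightest read 1332 and 1547 against 2102 and 2276. Its difference was 0.60 (SE 0.09), 0.51 with median centring and 0.50 to 0.71 with an array left out, also called at all 9 settings. The second, at 598 and 452 against 616 and 849, had 0.46 (SE 0.17), with groups that lay apart only narrowly, and was called only without Ezh2 KO replicate 1 (0.69). The dimmest overlapped, at 57.6 ± 11.5 and 66.6 ± 8.73. Id3 read 4.39 and 1.43 in the wild type and 3.94 and 4.89 in the knockout, all under the filter, so no fold is given.

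Markers of NK and innate lymphoid cells, which use Id2, were mostly under the filter. Of 8 on the array 2 were above it, and these 2 summed to 48.9 to 87.4 in the wild type and 98.7 to 117 in the knockout. All 8 together, 6 of them under the filter, summed to 87.7 to 175 and 225 to 228. Neither sum overlapped between groups, but without Prf1 the other 7 summed to 56.9 to 124 and 118 to 175, which overlap. Ncr1, a defining receptor of NK cells and itself under the filter, read 6.84 and 8.92 against 34.8 and 22.2. Gzma and Prf1 did not overlap between groups either, but Klrd1, Gzmb, Eomes, Tbx21 and Il2rb did. The part of such cells in the Id2 difference was not tested.

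Of the blood partners of E proteins, Lyl1 was bright in both groups. It read 5724 and 5744 in the wild type and 6235 and 5533 in the knockout, so the knockout arrays lay on either side of the wild-type arrays. Its log2 difference was 0.03 (SE 0.07) and -0.06 with median centring. Tal1, its close relative, was dim: 31.0 and 29.2 in the wild type and 11.1 and 1.83 in the knockout. The groups did not overlap, but the mean of 18.3 was just below the filter, and the difference was -2.41 when 1 was added to the intensities and -0.42 when 64 was added, so its size depends on how near-background signal is treated. Just on the other side of the filter lay Hes1, the Notch-induced repressor, with a mean of 27.7. It read 5.38 and 51.5 in the wild type and 31.0 and 23.1 in the knockout, and the wild-type arrays enclosed the knockout values. The erythroid list, cells that need Tal1, had 6 of 8 markers above the filter and summed to 4583 to 4660 in the wild type and 3819 to 4099 in the knockout, nearly all of it the transferrin receptor Tfrc. Without Tfrc the sums were 311 to 314 and 273 to 335, which overlap. Single markers went both ways: Klf1, the red cell master factor, read 98.4 and 95.4 against 82.3 and 59.6, and Gata1, the factor of red cells and megakaryocytes, read 43.1 and 52.8 against 78.0 and 62.0, neither called. The part of red cell precursors in the Tal1 values was not tested.

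Setting each gene against Tcf3 on the same array removes the scaling of the arrays. Relative to the brightest Tcf3 probe set, the log2 ratio rose from wild type to knockout by 3.14 for Tcf24, 0.72 for Id1, 0.66 for Id2, 0.51 for Tcf4 and 0.43 for Tcf12. In these 5 genes both knockout ratios lay above both wild-type ratios, and the pooled SD within groups was 0.07 to 0.15. For Lyl1 the ratio differed by 0.10 (pooled SD 0.06), with 3.01 and 2.93 in the wild type and 3.11 and 3.02 in the knockout, nearly touching. Hes1, near the filter, overlapped at -5.06 and -3.49 against -3.94 and -4.13, and was left out of the figure. The ratio shows unequal change of the genes and not that Tcf3 itself was constant.

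**Figure D3:**
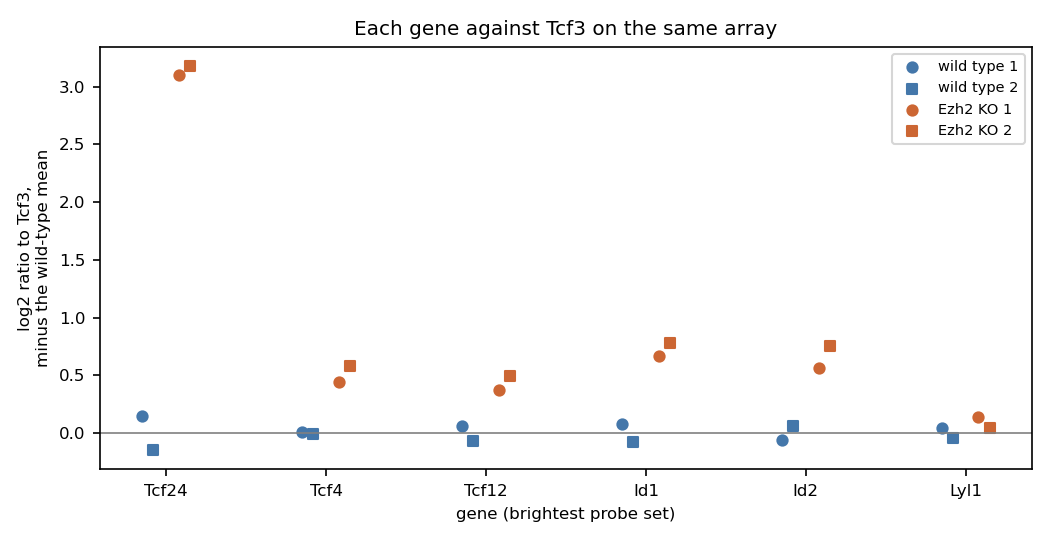
Log2 ratio of the brightest probe set of each tested member gene but Hes1 to that of Tcf3 on the same array. The wild-type mean of each gene was subtracted, with wild-type arrays in blue and Ezh2 KO arrays in orange. Tcf24 lies 3.14 above the wild-type mean, Id1, Id2, Tcf4 and Tcf12 lie 0.43 to 0.72 above it, and Lyl1 lies at 0.10.

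The surroundings of the family were read from 7 lists of other genes, 160 in all and none a member, with each gene represented by its brightest probe set. The lists were chosen by function with earlier results of these data known, so their shares support no statement about a pathway. Of 114 tested genes 15 were called, 13 higher and 2 lower, which is 13.2%, where 9.18% of all 13928 genes tested were called, 4.52% higher and 4.66% lower. The median log2 difference of the 114 was 0.11, against 0.01 over all genes. Of the 15 calls 7 held at all 13 limma alternatives that kept a variance trend: Hes6, Hif3a, Runx1, Ssbp2, Maml1, Bmpr1a and Bmpr2. Median centring left 8 of the 15.

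In the BMP pathway, which induces Id genes through the receptor-activated Smads, 4 of 16 tested genes rose and 0 fell (median 0.31). The type I receptor gene Bmpr1a rose from 140 and 123 to 615 and 714, a log2 difference of 2.21 (SE 0.15, limma adjusted p = 4.04e-05), and 4 of its 5 further tested probe sets were called in the same direction. The type II receptor gene Bmpr2 rose from 165 and 115 to 495 and 391 (1.57, SE 0.20, limma adjusted p = 0.0017), though its 2 further probe sets, at 0.04 and 1.49, were not called. For both receptors every knockout array lay above every wild-type array. Acvr2a, an activin receptor that also binds BMPs, rose by 0.71 (limma adjusted p = 0.0309), and Bambi, a decoy receptor and BMP target, by 0.47 (limma adjusted p = 0.0153). Acvr2a lost its call without wild-type replicate 1 (0.73), wild-type replicate 2 (0.69) or Ezh2 KO replicate 1 (0.63), and Bambi without wild-type replicate 1 (0.45) or Ezh2 KO replicate 2 (0.43). Neither was called with median centring, at 0.61 and 0.38.

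Partners of the Tal1 and Lyl1 complex had 4 of 16 tested genes higher and 0 lower (median 0.22). Ssbp2, which stabilises the LIM-domain binding protein of that complex, rose from 205 and 183 to 734 and 691 (1.80, SE 0.13, limma adjusted p = 5.98e-05). Its relative Ssbp3 rose by 0.62 (limma adjusted p = 0.0203), and its further probe set, at 0.18, was not called. Of the 3 further probe sets of Ssbp2, at 0.81 to 1.72, 1 was called. Runx1, a core factor of blood stem cells, rose from 868 and 929 to 1456 and 1323 (0.62, SE 0.09, limma adjusted p = 0.00395), with 5 of 5 further probe sets in the same direction and 1 of them called. Every knockout array lay above every wild-type array for each of these genes. The stem cell factor Erg rose by 0.36 (limma adjusted p = 0.0355). Ssbp3 was not called without wild-type replicate 1 (0.53) or Ezh2 KO replicate 2 (0.56), nor Erg without wild-type replicate 1 (0.36), wild-type replicate 2 (0.36) or Ezh2 KO replicate 2 (0.31), and median centring ended both calls (0.52 and 0.26). Lmo2, the bridging subunit of the complex, was at 15716 ± 1379 in the wild type and had a difference of -0.11 (limma adjusted p = 0.504), and Gata2 had 0.82 (limma adjusted p = 0.0689). Lmo2 and Gata2 are named outside the rule, as subunits of the complex, after their values were seen.

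Of the mast cell and basophil markers 5 of 9 were above the filter and 1 of these was called, the mast cell carboxypeptidase Cpa3, which rose from 50.6 and 64.8 to 1318 and 1241. All 9 together summed to 3488 to 3574 in the wild type and 4848 to 5184 in the knockout, and without Cpa3 to 3438 to 3509 and 3607 to 3867. Kit, also a myeloid leukemic marker, was the largest share of the sum without Cpa3. It read 2321 and 2362 against 2706 and 2555 and was not called. The basophil protease Mcpt8 read 798 and 843 in the wild type and 744 and 642 in the knockout. The mast cell chymase Cma1, also lower, was at or below 29.8 on all arrays. Gata2 was higher without overlap, at 163 and 98.9 against 224 and 250, and was not called. Fcer1a, under the filter, read 2.88 and 1.52 against 12.0 and 17.5. Ms4a2, Tpsb2 and Mcpt4 overlapped between groups. The megakaryocyte list summed to 413 to 418 and 538 to 651, with 0 of its 5 markers above the filter called. Its sums stayed apart without its brightest marker Itga2b, at 225 to 271 and 358 to 393. They lay narrowly apart without Gp9, at 282 to 347 and 356 to 478. Gp9 (log2 difference 0.77) and Gp1bb (0.76) were higher without overlap between groups. The other markers, Pf4 and Ppbp lower and Itga2b and Vwf higher, overlapped. The T lineage list, with 5 of 8 markers above the filter, summed to 281 to 310 and 468 to 518. Bcl11b was its only called member, and without it the sums were 218 to 254 and 298 to 322. Single markers of the T lineage list went both ways. Sums of the B lineage, conventional dendritic cell and stromal lists overlapped between groups, though the stromal sum without Pecam1 was 289 to 379 and 415 to 471. Over the markers above the filter, the B lineage and stromal sums overlapped too. Those of conventional dendritic cells, 221 to 241 and 245 to 251, lay narrowly apart. The defining markers of the labelled cells were present, with 10 of 10 myeloid leukemic markers above the filter and 9 of them above 1000. Of these 10, Itgam (log2 difference 0.74) and the receptor gene Csf1r (0.48) were called higher, and Cebpa (-0.63) and the granule protease gene Ctsg (-0.25) lower. The part of other cells in the differences above was not tested.

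The remaining lists held few calls. In the Notch pathway 2 of 18 rose and 0 fell (median 0.08): the coactivator gene Maml1 from 1643 and 1924 to 2866 and 3094 (0.74, SE 0.09, limma adjusted p = 0.00153), and the receptor gene Notch1 from 1096 and 1050 to 1420 and 1462 (0.42, SE 0.08, limma adjusted p = 0.0157). The 2 further probe sets of Maml1 had 0.19 and 0.30 and were not called. Notch1 lost its call with median centring (0.32) and without wild-type replicate 2 (0.39), and its further probe set had 0.07. Hes1, the target of this pathway among the members, stayed near the filter in both groups. Of the other repressors 1 of 6 rose, Hes6, an inhibitor of Hes1 activity, from 2599 and 2855 to 4206 and 4156 (0.62, SE 0.07, limma adjusted p = 0.00121), with its further probe set also called (0.61). The brightest Hes6 probe set has the suffix for possible shared sequence.

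Among tissue-restricted factors, the class that holds Tcf24, 0 of 22 tested genes rose and 1 fell (median -0.06). That gene was Ascl2, the intestinal stem cell factor, which went from 209 and 250 to 78.3 and 125 (-1.08, SE 0.24, limma adjusted p = 0.0258). It was not called without wild-type replicate 1 (-1.21), wild-type replicate 2 (-0.96) or Ezh2 KO replicate 1 (-0.79). Apart from Ascl2, the tested genes of this class were dim, with mean intensities from 23.0 (Nhlh1) to 96.4 (Hand1), where the filter was 21.9. Their errors were wide, with an SE of 0.58 for Nhlh1 and 0.35 for Hand1, so modest differences could not be called. The count therefore cannot show whether Tcf24 was alone in its class. Zipper and PAS factors had 2 of 26 higher and 1 lower (median 0.09). The hypoxia factor Hif3a rose from 194 and 168 to 356 and 406 (1.01, SE 0.16, limma adjusted p = 0.00485), although its 2 further probe sets disagreed in sign, at -0.25 and 1.65. The coactivator Ncoa2 rose by 0.43 (limma adjusted p = 0.017) and Tfec, of the Mitf family, fell by 0.26 (limma adjusted p = 0.0355). The 3 further probe sets of Ncoa2, at 0.04 to 0.76, were not called. Ncoa2 lost its call without wild-type replicate 1 (0.32) and with median centring (0.33), and Tfec with any array left out (-0.27 to -0.25).

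Lymphoid targets of E proteins had 0 of 10 tested genes called by limma, with 3 at an unadjusted p under 0.05, and the median difference was 0.20. Gfi1, a repressor also abundant in myeloid precursors, was at 9814 ± 76.3 and 10997 ± 365 (0.16, SE 0.06, limma adjusted p = 0.156), and the B cell receptor subunit Cd79b was at 751 ± 16.5 and 804 ± 61.1 (0.10, SE 0.10, limma adjusted p = 0.665). The other 8 tested targets had group means of at most 229.

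**Figure D4:**
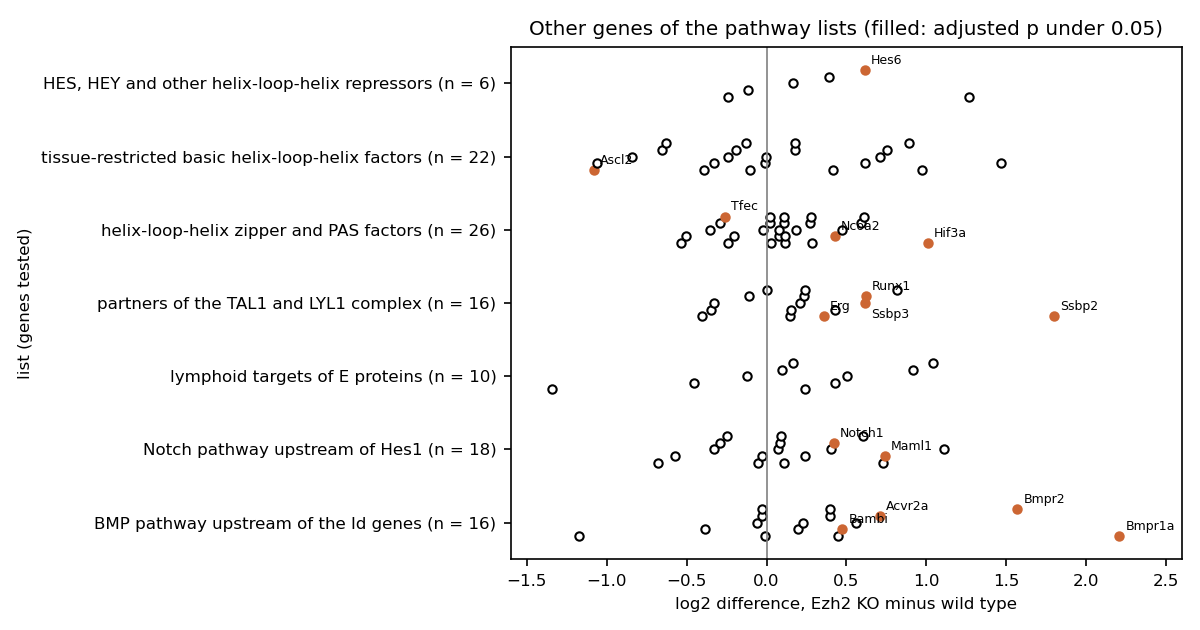
Log2 difference, Ezh2 KO minus wild type, of each tested gene in the 7 lists, 1 point per gene at its brightest probe set, filled and named where the limma adjusted p was under 0.05, with vertical position within a list only spreading the points. Of the 15 filled points 13 lie to the right of 0, and the farthest are Bmpr1a at 2.21, Ssbp2 at 1.80 and Bmpr2 at 1.57.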

How the data were processed

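The deposited values are probe set intensities of 4 1-colour arrays. Per the submitters' processing notes the tool was Affymetrix Expression Console; its version and algorithm are not given in the sources used here. Read from the values, each deposited array has a 2% trimmed mean of 500 and no quantile normalization, which removes any difference in total mRNA per cell. Groups and replicate numbers come from the sample titles.

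The 64 control probe sets were left out. Of the others 34945 had 1 symbol in the platform annotation, 932 several and 9160 none listed. Every probe set with a mean above the 30th percentile was tested as log2(intensity + 16) with lmFit and eBayes of limma 3.58.1 (R 4.3.3), the prior variance following intensity, with Benjamini-Hochberg adjustment over all 31526. The fit had 2 residual degrees of freedom and was tested on simulated data. The simulated variances were drawn from the fitted prior, so that run could not test whether the prior suits these arrays. Members, lists and alternatives were chosen with earlier results of these data known. Named were all member probe sets, the 5 genes nearest Tcf24, and of each list up to 3 called genes of largest difference or else the 2 brightest. Erg and Bambi were called but fall outside that rule. Python 3.11.15 and matplotlib 3.10.9 drew the figures.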

Additional observations from a re-analysis of the deposited data

How the results depend on the processing

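The 9 alternatives for the members were quantile normalization, median centring, pseudocounts of 1 and 64, the replicate block and each array left out. All 9 called member probe sets kept their sign at each of them. Their groups did not overlap, so only quantile normalization and median centring could have changed a sign. At all alternatives that kept the 4 arrays, 4 stayed called: those of Tcf24 and Id1, the brightest of Id2 and 1 of Tcf4. The count of called probe sets, 2303 (1234 higher, 1069 lower), was 1278 to 2130 with an array left out, the low end without wild-type replicate 1 (wild-type replicate 2 gave 1463). It was 1392 without a filter. Median centring gave 600 higher and 1130 lower. With the replicate number as a block it was 3715. Over all tested probe sets the deviations of arrays with the same replicate number correlated at 0.04. That shows no pairing across the array as a whole and cannot exclude one in part of the probe sets. Among the listed genes the block gave 18 calls in place of 15. A single prior variance gave 0 calls, with 4978 at an unadjusted p under 0.05. A plain test per probe set gave 2 calls, both lower, so neither was among the 9 called member probe sets. The calls therefore rest on a variance that follows intensity. The 15 listed genes called became 8 with median centring, 9 when all probe sets of a gene were averaged, 9 to 14 with an array left out (9 without wild-type replicate 1), 0 with a single prior variance (31 at an unadjusted p under 0.05) and 0 with the plain test (28). Without a filter Ascl2, Tfec, Erg and Acvr2a were not called (adjusted p = 0.0864, 0.0736, 0.0567 and 0.0746 in limma), nor was Tfec with median centring (-0.36). Where not stated, the cause was not tested. Signals near the filter limit Tal1 and Hes1, and a signal well under it limits Id3.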
